A study of Rattus norvegicus with 6 samples.

Results

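Circular RNAs (circRNAs) of 7 host genes were followed in the rat pineal gland. These genes were chosen by 2 measured values, the circular share and the linear reads at the ends of their circRNAs, which differed between 2 groups of rats. The authors' main tables of back-splice junctions held 2228 circRNAs from 1056 host gene IDs, and the 7 hosts had 9 of them: 7 were listed in all 6 libraries, 1 per host, and 2 in fewer. The hosts are known here by Ensembl gene ID alone, since none of the 1056 IDs was found in the RefSeq gene table used. For the same reason, markers of the pineal gland could not be looked up among the hosts.

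The study took whole pineal glands from 6 rats aged 8 weeks and sequenced total RNA, 1 library per rat, to compare day with night. The labels state no strain, no genetic change and no treatment other than the hour and the light. The labels contradict each other on that hour. The titles and time tags put rats C01 to C03 at 4:00, at night, and rats C04 to C06 at 16:00, in the day. The treatment protocol instead places C01 to C03 in sunlight at 16 to 17 hours, and C04 to C06 under red light at 4 to 5 hours. Groups are therefore named by rat number (n = 3 each), without saying which was taken by day. The main tables held 15506 to 22265 back-splice reads per library. Whole glands hold several cell types, and in such bulk RNA fewer cells of a type and less RNA per cell cannot be told apart.

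A circRNA is made when the spliceosome joins a downstream splice donor to an upstream acceptor, which closes the RNA into a loop. Reads across that back-splice junction count the circle, while reads that run across the same ends without a back-splice count linear RNA of the same locus. Circles have no free ends and resist exonucleases, so they usually outlast their linear partners, and a gene's circular and linear products can move separately. The pineal gland secretes melatonin at night, and many of its transcripts are known to follow the daily cycle.

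All values that chose these hosts come from the same comparison of C01 to C03 with C04 to C06. They are given as a description, counts past a threshold included, with every difference taken as C01 to C03 minus C04 to C06. The circular share is the part of the reads at a circRNA's ends that comes from the circle, in percent, computed as 2 times the back-splice reads over that number plus the linear reads. Log2 differences in the share are differences in log2 of back-splice over linear reads. Normalised counts (CPM) are the reads scaled to a common total for reads of that kind, after TMM scaling (a per-library correction that centres most circRNAs on no difference). CPM of linear and of back-splice reads have different totals, so their heights are not compared with each other.

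In 3 hosts the circular share was lower in C01 to C03 and linear reads were higher. The most abundant of these was the exonic circRNA of ENSRNOG00000059479 at chr14:87328008-87357732, on the plus strand, spanning 29725 bases. Its circular share was 22.8%, 20.6% and 22.5% in C01, C02 and C03, and 56.1%, 51.9% and 51.1% in C04, C05 and C06. The groups lay far apart, and the rats within each differed by a few percentage points. The linear reads behind these shares averaged 14185 ± 1090 normalised CPM in C01 to C03 and 2934 ± 400 in rats C04 to C06 (SD, n = 3 each). That is a log2 difference of 2.27 (SE 0.09), or 4.84-fold. Back-splice reads numbered 148, 88 and 119 against 92, 102 and 95. After scaling for depth these became 7049 ± 1134 and 5310 ± 276 normalised CPM, higher in each of C01 to C03 by a log2 difference of 0.41 (SE 0.14). The back-splice difference did not pass in edgeR.

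The exonic circRNA of ENSRNOG00000012653 at chr6:136430192-136436620, on the minus strand, was the only one of the 7 whose linear and back-splice reads differed in opposite directions with all 6 rats in the fit. Opposite signs also appeared at chr18 without C02 or C06, and at chr8:49754717-49757732 without C01. Linear reads numbered 85, 59 and 74 in C01 to C03 and 43, 40 and 39 in rats C04 to C06. All 3 counts of the first group were above all 3 of the second. In normalised CPM the log2 difference was 0.83 (SE 0.21). Back-splice reads numbered 8, 12 and 12 against 22, 18 and 24. They were lower by a log2 difference of -0.85 (SE 0.42), with 654 ± 191 normalised CPM in C01 to C03 and 1185 ± 243 in rats C04 to C06 (SD). The circular share was 15.8%, 28.9% and 24.5% against 50.6%, 47.4% and 55.2%. The back-splice difference did not pass in edgeR and lay between -0.98 and -0.59 leaving out 1 rat.

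The third host with a lower share, ENSRNOG00000016502, rested on few reads. Its circRNA at chr8:49754717-49757732, exonic and on the plus strand, ranked 271 of the 273 circRNAs listed in all 6 libraries by mean back-splice CPM. Back-splice reads numbered 8, 4 and 3 in C01 to C03 and 4, 3 and 6 in rats C04 to C06. The groups overlapped, and the summed counts of 15 (exact Poisson 95% interval 8.40 to 24.7, counting error only) and 13 (6.92 to 22.2) could not be told apart at this depth. Linear reads numbered 33, 30 and 29 against 7, 6 and 14, with no overlap. Their log2 difference was 1.76 (SE 0.36), and it was 2.25 without C06, the rat with 14 reads. The circular share was 32.7%, 21.1% and 17.1% against 53.3%, 50% and 46.2%.

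In the other 4 hosts the circular share was higher in C01 to C03 and linear reads were lower. The difference was largest for ENSRNOG00000019506, host of a short circRNA of 425 bases at chr9:82440779-82441203, on the minus strand, which the files annotate as intronic. Linear reads numbered 39, 25 and 42 in C01 to C03, against 463, 463 and 422 in rats C04 to C06. The log2 difference was -3.66 (SE 0.14), a 12.7-fold lower level. No other circRNA listed in all 6 libraries had a larger log2 difference in linear reads or in circular share. Back-splice reads were also lower, at 19, 15 and 14 against 29, 27 and 36, with a log2 difference of -0.82 (SE 0.30). As linear reads were lower by far more, the circular share was 49.4%, 54.5% and 40% in C01 to C03 and 11.1%, 10.4% and 14.6% in rats C04 to C06.

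ENSRNOG00000016087 gave an exonic circRNA of 778 bases at chr18:29633808-29634585, on the plus strand, with almost level back-splice reads. These numbered 160, 110 and 130 against 154, 137 and 171, and the normalised CPM of the groups overlapped (7977 ± 727 against 8542 ± 1501; log2 difference -0.10, SE 0.15). Linear reads numbered 1264, 946 and 979 against 2474, 2534 and 2226. They differed by -1.18 on the log2 scale (SE 0.04), with rats of a group within a narrow range of 17279 to 19020 and of 40123 to 42902 normalised CPM. The circular share was 20.2%, 18.9% and 21.0% in C01 to C03 and 11.1%, 9.76% and 13.3% in rats C04 to C06. At this host the linear reads differed, and the back-splice difference was smaller than its SE.

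ENSRNOG00000001700 had a pair of circRNAs on the minus strand of chromosome 5 that share the end at 79280979. The exonic one, chr5:79280979-79291689, had 44, 31 and 42 back-splice reads in rats C01 to C03 and 64, 75 and 40 in rats C04 to C06. The groups overlapped because C06 lay with C01 to C03, and the log2 difference was -0.48 (SE 0.23). Linear reads numbered 361, 314 and 318 against 777, 891 and 738, with a log2 difference of -1.27 (SE 0.08) and no overlap. The circular share was 19.6%, 16.5% and 20.9% against 14.1%, 14.4% and 9.78%.

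The second circRNA of this host, chr5:79280979-79294041, annotated as intronic, was listed in C01 and C03 only. It had 10 and 11 back-splice reads there, and 177 and 170 linear reads, giving circular shares of 10.2% and 11.5%. No table lists a share below 9.09%, which is 20 linear reads per back-splice read, so in the other 4 libraries this circRNA is unlisted and not a measured 0. A second caller, whose lists carry no linear reads, had it in all 6 libraries, with 5, 4 and 3 reads in rats C01 to C03 and 2, 2 and 7 in rats C04 to C06. These counts overlap, so the listing in C01 and C03 alone had no counterpart there.

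ENSRNOG00000004050 had the circRNA with most back-splice reads among the 7 and the smallest shift. At chr8:130762665-130768360, exonic and on the plus strand, back-splice reads numbered 186, 174 and 159 in C01 to C03 and 252, 243 and 214 in rats C04 to C06. The log2 difference was -0.32 (SE 0.09); the groups did not overlap with TMM scaling but overlapped when scaled by library size only. Linear reads numbered 602, 472 and 439 against 910, 1003 and 931, a log2 difference of -0.91 (SE 0.07). The circular share was 38.2%, 42.4% and 42.0% against 35.6%, 32.6% and 31.5%, which puts all of C01 to C03 above all of C04 to C06 by a narrow gap.

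**Figure D1:**
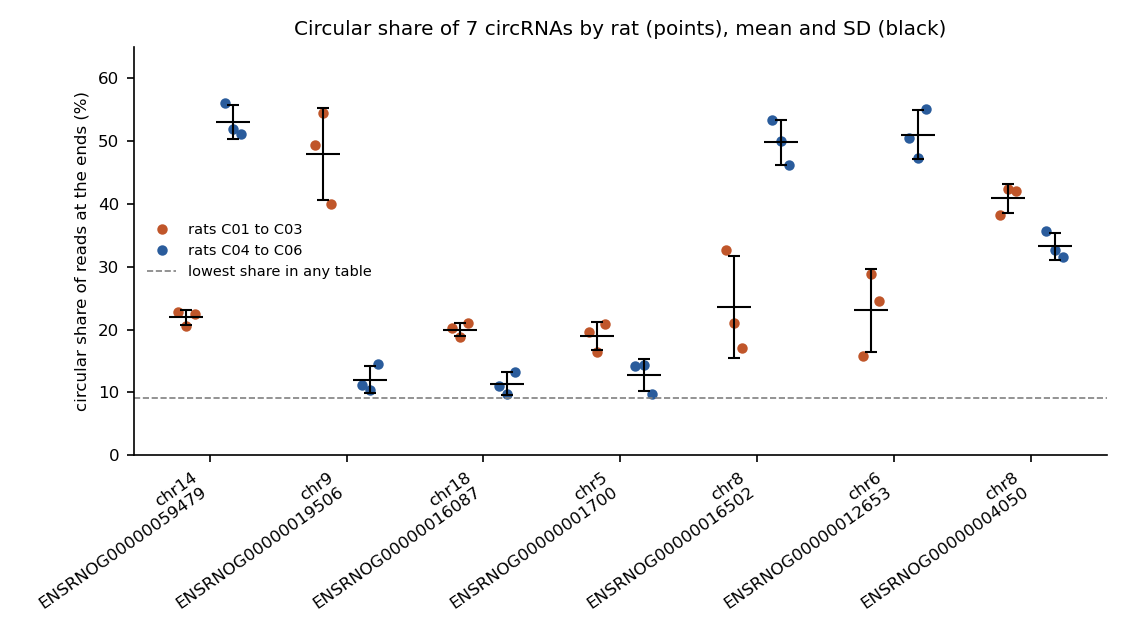
Circular share of reads (%) at the ends of the 7 circRNAs listed in all 6 libraries, by host; points are rats (C01 to C03 orange, C04 to C06 blue), black marks the mean with SD (n = 3), and the dashed line is the lowest share in any table, 9.09%. The chr14, chr6 and chr8 ENSRNOG00000016502 circRNAs lie at 46.2% to 56.1% in rats C04 to C06, while chr9, chr18 and chr5 lie at 9.76% to 14.6% there.

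The 7 circRNAs spread more widely in rats C04 to C06 than in C01 to C03. The circular share helped choose these hosts, and the spread of other circRNAs was not compared, so this only describes the 7. In C04 to C06 the mean share ran from 11.4% ± 1.80 at chr18 to 53.0% ± 2.69 at chr14. The highest 3, chr14, chr6 (51.0% ± 3.92) and chr8:49754717-49757732 (49.8% ± 3.59), overlapped each other. So did the lowest 3, chr5 (12.8% ± 2.60), chr9 (12.1% ± 2.21) and chr18. Between them stood chr8:130762665-130768360 at 33.3% ± 2.14. In C01 to C03, 5 of the circRNAs came close together. There chr5 (19.0% ± 2.26), chr18 (20% ± 1.07), chr14 (21.9% ± 1.19), chr6 (23.1% ± 6.65) and chr8:49754717-49757732 (23.6% ± 8.07) overlapped along their order. Above these 5 stood chr8:130762665-130768360 at 40.9% ± 2.34 and chr9 at 48.0% ± 7.37 (SD, n = 3 each).

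The 3 circRNAs with the lowest circular share in rats C04 to C06 lay close to the minimum share for listing. Their lowest shares were 9.76% at chr18, 9.78% at chr5 and 10.4% at chr9. Of the 273 circRNAs listed in all 6 libraries, 20 had a lowest share under 10%, chr18 and chr5 among them. These values sat just above the lowest share that any table lists.

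**Figure D2:**
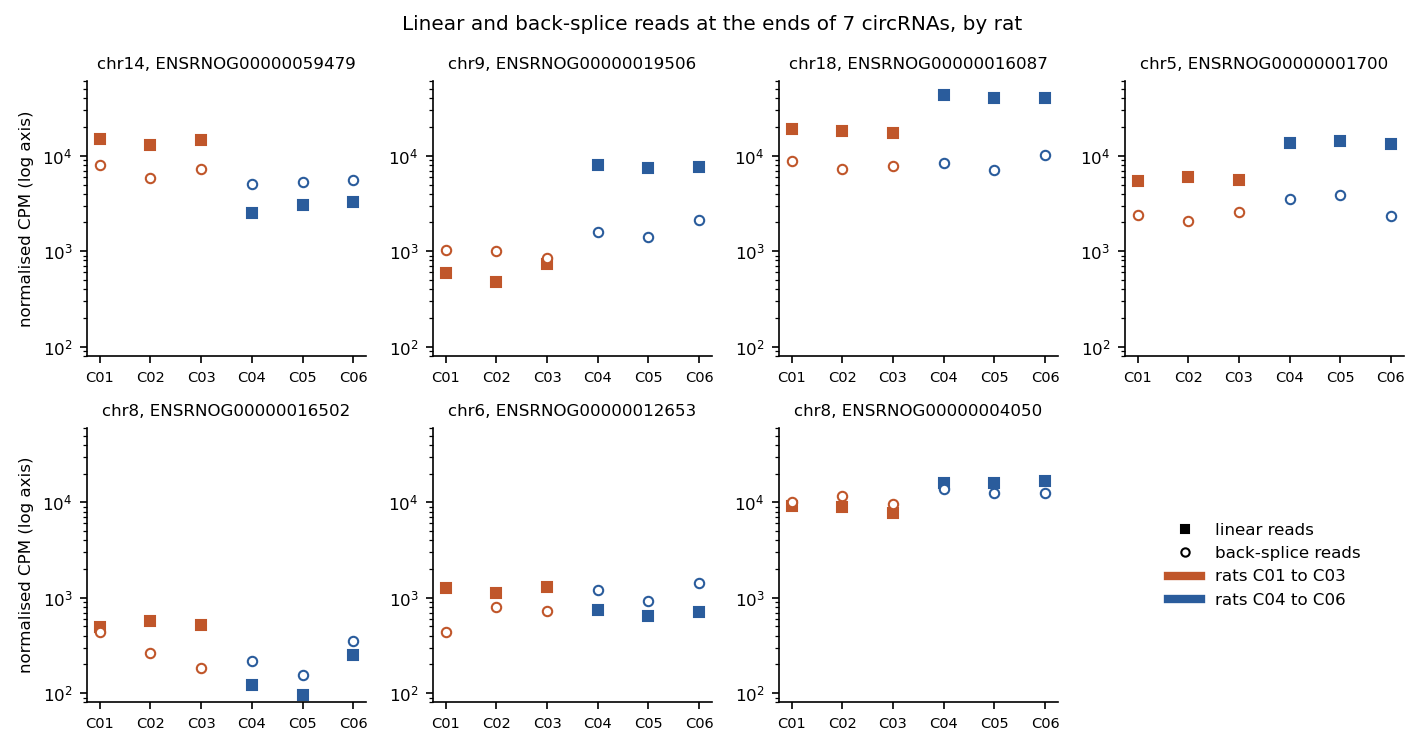
Normalised CPM (log axis) of linear reads (filled squares) and back-splice reads (open circles) per rat at the ends of the 7 circRNAs, with C01 to C03 in orange and C04 to C06 in blue. At chr9 linear reads sit at 478 to 741 in C01 to C03 and at 7411 to 8029 in rats C04 to C06, whereas at chr18 back-splice reads overlap between the groups; each kind of read is scaled to its own total.

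Counted over the 7 circRNAs, linear reads did not overlap between the groups in 7 of 7, where 46.2% of the 273 circRNAs listed in all 6 libraries had groups that did not overlap. All 7 passed an adjusted p of 0.05 in edgeR's quasi-likelihood test for linear reads (Benjamini-Hochberg over the 273), 3 higher and 4 lower, with 31.9% of the 273 passing. For the circular share, groups did not overlap in 7 of 7 (28.6% of the 273), and 4 of 7 passed in limma (2.20% of the 273): chr9, chr14, chr6 and chr8:49754717-49757732. Linear reads and the share chose these hosts, so neither count is read as a result about them. Of the 4, chr6 did not pass without C03, C04, C05 or C06 (log2 difference -1.90 to -1.68). The chr8:49754717-49757732 circRNA did not pass without any rat other than C01 (-1.79 to -1.44). The median log2 difference in the share over the 273 was -0.20, so the 4 hosts with a higher share stood further from the typical circRNA than their own values say. Relative to that median chr9 stood at 2.96 and chr14 at -1.81.

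Back-splice reads passed in 0 of 7 by edgeR (1.55% of 772 circRNAs passed). In the same test 3 of the 7 had an unadjusted p under 0.05, against 77 of the 772. Their groups did not overlap in 4 of 7 (19.0% of the 772): chr14 was higher in C01 to C03, and chr9, chr6 and chr8:130762665-130768360 were lower. When scaled by library size only, the groups at chr8:130762665-130768360 overlapped. The median size of the log2 difference was 0.41 for back-splice reads and 1.27 for linear reads over the 7 circRNAs. Over all circRNAs tested it was 0.61 for back-splice reads (772 circRNAs) and 0.23 for linear reads (the 273). The 772 include circRNAs not listed in all 6 libraries, many at low counts. The 7 were listed in all 6, so 0.61 is not a like measure for their 0.41. For the same reason the 1.55%, the 77 and the 19.0% of the 772 come from an unlike set. The linear difference was the larger of the pair in 6 of 7, against 46.9% of the 273. With all 6 rats both differences had the same sign in 6 of 7, chr6 being the exception, and in 156 of the 273. The hosts were selected on this balance, so these counts only describe them.

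**Figure D3:**
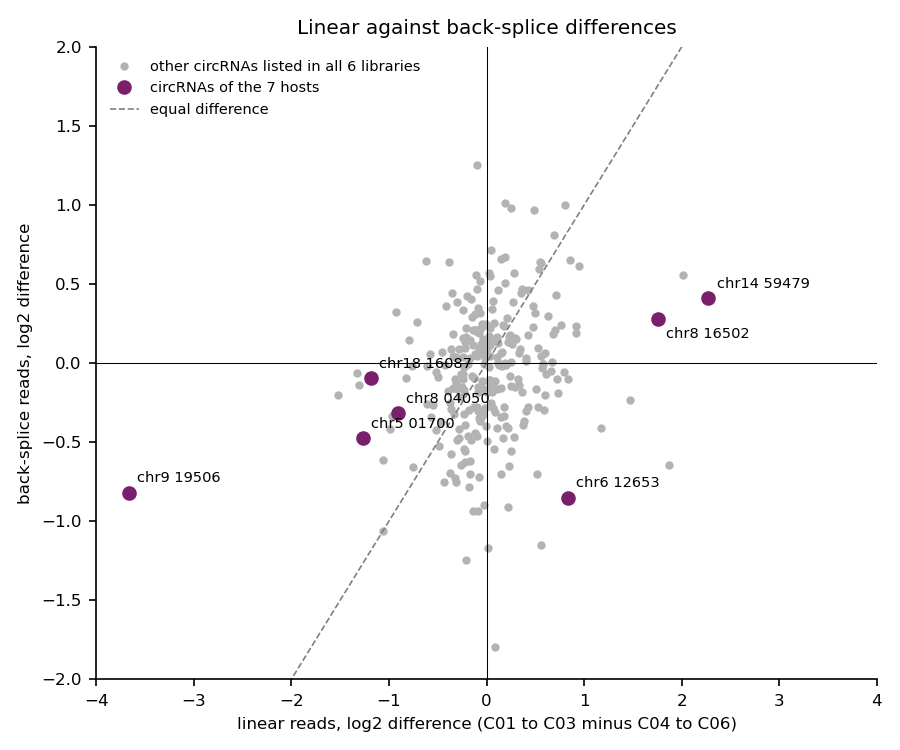
Log2 difference (C01 to C03 minus C04 to C06) in linear reads (x axis) and in back-splice reads (y axis) for the 273 circRNAs listed in all 6 libraries; purple points are the 7 circRNAs, labelled by chromosome and the last digits of the host ID, and the dashed line marks equal differences. The 7 extend along the x axis, from -3.66 at chr9 to 2.27 at chr14, while staying between -0.85 and 0.41 on the y axis.

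The second caller gave a separate count of the circles, from the same libraries. It listed 6 of the 7 circRNAs in all 6 libraries and chr8:49754717-49757732 in all but C03. At chr14 it had 112, 85 and 127 reads in rats C01 to C03 and 63, 94 and 72 in rats C04 to C06, with a log2 difference of 0.41 (SE 0.20). At chr9 it had 18, 16 and 20 against 17, 30 and 31 (-0.61, SE 0.34), and at chr6 it had 6, 6 and 4 against 8, 16 and 15 (-1.33, SE 0.62). In normalised CPM the groups did not overlap at these 3, in the directions of the main tables, and overlapped at the other 5 circRNAs tested (background 11.1% of 2208 circRNAs). At chr18 its reads numbered 90, 64 and 80 against 33, 72 and 87 and gave 0.21 (SE 0.24), with 0.56 without C06 and -0.0033 without C04. None of the 8 circRNAs tested passed in edgeR (0.0906% of 2208 passed). In the same test 2 of the 8 had an unadjusted p under 0.05, against 119 of the 2208.

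How many of the main tables' reads the second caller found differed widely among the hosts, a measure that takes no part in the comparison of groups. At chr8:130762665-130768360 it found 14.7% of the main tables' number, from 9.52% in C04 to 21.8% in C02. The median over the 170 circRNAs listed in all 6 libraries by both callers was 73.0%, with quartiles of 51.6% and 90.4%, and 0.588% of the 170 had a lower value. The chr18 and chr6 circRNAs came next with 49.4% and 57.3%, and the other 4 lay between 82.1% and 94.6%. For 5 of the 7 circRNAs the lowest value was in C04. That library was also lowest over the 170 circRNAs, with a median of 47.4% against 62.5% to 84.2% in the others. The part of this in the group differences of the second caller was not tested.

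**Figure D4:**
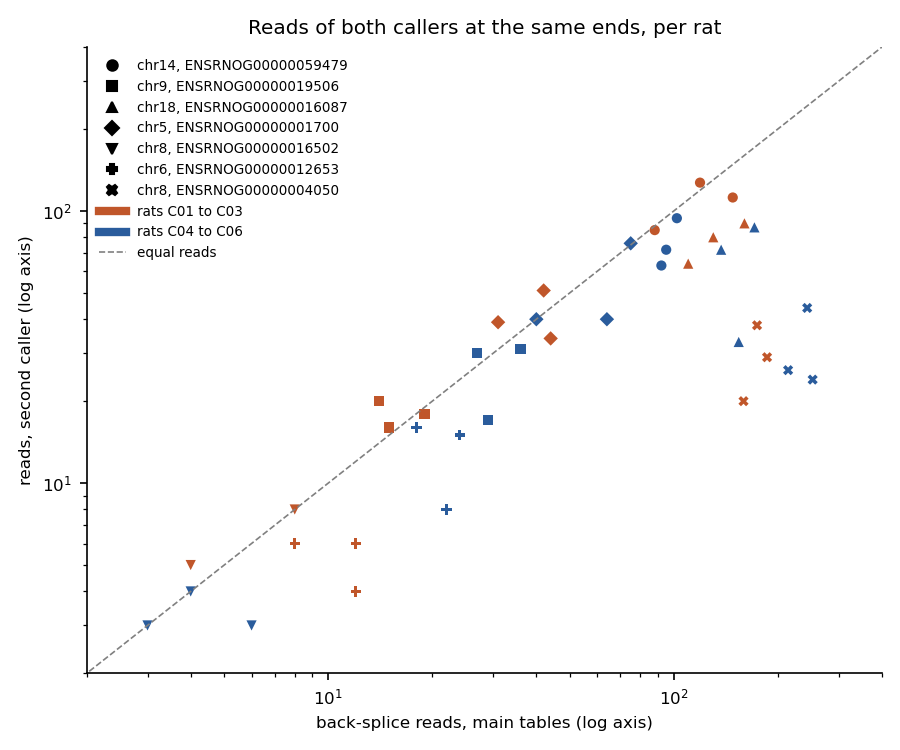
Reads of the second caller (y axis, log) against back-splice reads of the main tables (x axis, log) at the same ends, per rat, for the 7 circRNAs (marker shape) in C01 to C03 (orange) and C04 to C06 (blue); the dashed line marks equal reads. The chr8 ENSRNOG00000004050 circRNA lies far below the line in every rat, at 20 to 44 reads against 159 to 252, while chr9 and chr5 scatter around it.

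The authors' deposited TPM, which exceed 0 in a library if the circRNA stands in the lists of both callers there, did not overlap between the groups at 3 hosts, in the directions of the back-splice reads. At chr14 they were 19739 ± 2496 in C01 to C03 and 13790 ± 824 in rats C04 to C06, at chr9 they were 2630 ± 21.5 and 4067 ± 941, and at chr6 they were 1577 ± 352 and 3046 ± 583 (SD, n = 3 each). The groups overlapped at the other 6 circRNAs of the hosts. How often TPM groups do not overlap over all circRNAs was not counted, so these numbers are not read as a result about the hosts.

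Spans of the 7 circRNAs ran from 425 bases at chr9 to 29725 at chr14, and 6 of the 7 were shorter than the median of 14828 over the 273. By type 6 were exonic and 1 intronic, against 167 exonic, 20 intronic and 86 intergenic among the 273, and 4 lay on the plus strand and 3 on the minus strand. By mean back-splice CPM they ranked 14 (chr8:130762665-130768360), 19 (chr18), 28 (chr14), 73 (chr5), 140 (chr9), 179 (chr6) and 271 of 273. Together they held 2.83% ± 0.130 of the back-splice reads of a library (SD, n = 6). Each lies in 1 host gene only, and 5 of the 7 hosts had no other circRNA in the main tables. The second circRNA of ENSRNOG00000016502, the exonic chr8:49971748-49978590, was listed in C05 alone with 2 back-splice and 7 linear reads. The second caller had 3 reads there in each of C05 and C06. With the first circRNA this places ends of the host at least 223874 bases apart.

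For each of the 7 circRNAs, the circRNA whose circular balance rose and fell most alike across the libraries was looked up on other chromosomes, outside the 7 hosts. Likeness was Pearson's r of log2 back-splice over linear reads across the 6 libraries, among 239 to 256 circRNAs. The nearest to chr14 was the intergenic chr1:281236389-281256438 (r = 0.987). The same intergenic circRNA, chr15:105493588-105495743, was nearest to both chr9 (r = 0.993) and chr18 (r = 0.952). For chr5 it was chr19:30869716-30870010 (r = 0.960) and for chr6 chr2:94708675-94720889 (r = 0.979). For chr8:49754717-49757732 it was chr17:27571479-27602936 (r = 0.995) and for chr8:130762665-130768360 chr14:1388886-1414488 (r = 0.918). All points come from the same 6 libraries in 2 groups, so pairs that differ between the groups in the same direction tend to score high. Pearson's r takes no account of level or size of a difference. The chr17 circRNA had a log2 difference in the share of -0.46, against -1.68 at chr8:49754717-49757732. The chr19 circRNA had 1.25, against 0.70 at chr5. The r values only describe likeness of pattern.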

How the data were processed

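Per library, the authors deposited a circRNA table of read counts, whose column names are those of the caller CIRI, and a candidate list with read counts, whose column names are those of find_circ (the second caller), per the file headers. The deposited fraction in the main tables equals the circular share as defined above, within 0.0005. For the series they deposited TPM values. Which versions, aligner and settings they used is not given in the sources used here. DESeq and a mouse genome build, mm9, stand in the submitters' processing notes, while the files have rat gene IDs. Coordinates are therefore those of the files, counted from 1, and no sequence was read by coordinate.

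circRNAs were joined by chromosome, start and end. Starts in the candidate lists count from 0 and were raised by 1. Linear reads at an end shared by several circRNAs can count for each of them. Linear reads (273 circRNAs listed in all 6 libraries), back-splice reads (772 with 2 or more reads in 3 or more libraries, unlisted as 0) and second caller reads (2208 by the same filter) were fitted in edgeR 4.0.16 with TMM. The log2 ratio (pseudocount 0.5) was fitted in limma 3.58.1 with trend, in R 4.3.3. Adjustment was Benjamini-Hochberg over each whole table. For edgeR the SE was taken as the log2 difference over the root of F. The edgeR and limma fits were also run on simulated counts. These had a fixed spread and no minimum share for listing, unlike the deposited counts, so that run is no support for the results. The labels give 1 rat per library. Every circRNA of the 7 hosts in the main tables is reported, and those listed in all 6 libraries are given library by library. Hosts and lists were chosen with earlier results of these data known. Alternatives were DESeq2 1.42.0, RLE, other filters and pseudocounts, the second caller, and leaving out each rat.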

Additional observations from a re-analysis of the deposited data

Results flagged for a closer look

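Junctions that share 1 end with a circRNA of the 7 hosts but are missing from the main tables were looked for in the second caller's lists. Of these, 3 had more than 3 reads in a library. Missing from the main tables is not a measured 0, as no share below 9.09% is listed there. Whether these junctions fell below that minimum was not tested. All 3 begin where the chr14 circRNA of ENSRNOG00000059479 begins, at 87328008. The one ending at 87377952 had 13, 4 and 3 reads in C01 to C03, none listed in C04, and 4 and 3 in C05 and C06, with 13 in C01 as its highest count. The one ending at 87331877 had 3, 3 and 12 reads in C01 to C03, then 3 in C04 and 2 in C06, with none listed in C05. The shortest, ending at 87328157, had 2 reads in C01 and 5 in C06. All 3 were far below the 63 to 127 reads of the main chr14 circRNA in the same lists. Groups of 3 rats were not examined for single outlying rats.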

How the results depend on the processing

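Log2 differences of the 7 circRNAs in circular share and in linear reads kept their sign under every alternative run, from -2.06 to -1.77 at chr14 and from 2.58 to 3.21 at chr9 for the share. Both values chose the hosts, and their groups did not overlap in 7 of 7, so leaving out 1 rat could hardly turn a sign. The kept signs are therefore no separate support for these differences. With the second caller's reads over the same linear reads, the share difference was 1.57 at chr18, 0.99 at chr5 and 0.82 at chr8:130762665-130768360. At chr9 it was 3.21, and each of these was larger than in the main tables. It was smaller in size at chr14 (-1.77 against -2.00) and larger in size at chr6 (-1.99 against -1.80). This ratio was not scaled for how many reads the second caller found per library, lowest in C04 (median 47.4%). The cause of these moves was not tested. The chr8:49754717-49757732 circRNA could not be fitted there for lack of reads in C03. Signs turned for back-splice reads at chr18 (2 of 10 alternatives) and chr8:49754717-49757732 (1 of 10). For the second caller's reads they turned at chr18 and chr8:130762665-130768360 (1 of 10 each), chr8:49754717-49757732 (1 of 9) and chr5:79280979-79294041 (6 of 10). Over all circRNAs, calls for the share were 10 with a pseudocount of 1, 3 with the second caller's reads (170 circRNAs) and 3 to 5 leaving out 1 rat, against 6. Calls for linear reads were 70 to 99 against 87. Calls for back-splice reads were 41 without a filter, 7 among circRNAs listed in all 6 libraries, 28 in DESeq2 and 1 to 14 leaving out 1 rat, against 12. Calls for the second caller were 4 among circRNAs listed in all 6 libraries and 0 to 1 leaving out 1 rat, against 2, with 119 at an unadjusted p under 0.05 in edgeR. No paired analysis was possible because the groups share no rat number. The planned test of the order of circRNAs within a host was not run, as no host had 2 circRNAs listed in all 6 libraries. Depth limits chr8:49754717-49757732 most, at 3 to 8 back-splice reads per library.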
